A study of Homo sapiens with 12 samples.

Results

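The control libraries of a study on GPD1L in SW480, an established cell line from a human colon adenocarcinoma, were compared with each other. The study lowered GPD1L with a short hairpin RNA and raised it with an expression construct, and each change had its own control: shNC, the hairpin control, and Vector, the overexpression control. Both controls are SW480 cells with no intended change of GPD1L, and 3 poly(A) RNA-seq libraries were made of each, so that 6 of the study's 12 libraries are compared here. The remaining 6 libraries are the hairpin line shGPD1L and the overexpressing line OE, 3 of each. Levels are FPKM, that is fragments per kilobase of transcript after scaling to the mapped fragments of the library, and are comparable between genes per unit of length. The deposited tables held 12388 and 12411 genes with an annotated identifier, 12203 of them in both, and the 11225 of these whose mean reached 1 FPKM in shNC and in Vector were tested. Of these, 11222 were protein-coding.

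Each control is a single group in a single table, nothing in the labels says that its 3 libraries came from separate cultures, and no group contains unmodified cells. The p-values therefore measure the spread between these libraries, which may be technical. The tables may also have been normalized separately, so a difference between the lines and a difference between the tables cannot be told apart. Differences are given as Vector minus shNC in mean log2(FPKM + 1), where 1 unit is a 2-fold change for an abundant gene and understates the fold of a gene near 1 FPKM. Means are given ± the SD of 3 libraries and differences ± the SE of the fit. A gene was called where the Benjamini-Hochberg adjusted p of a limma fit over all 11225 genes was under 0.05. Exons of 2954 tested genes overlap another listed gene, and their reads may not have been separated; among the genes described below this holds for HSP90AA1 (with WDR20), CLDN7 (ELP5), DNAJB9 (PNPLA8 and THAP5), FAS (ACTA2), MDM2 (CPM), CFB (C2), FTH1 (BEST1), TNFRSF10B (RHOBTB2), PRDX1 (MMACHC), CRELD2 (ALG12), GINS2 (GSE1), CCNE2 (INTS8), CENPA (SLC35F6), TPI1 (SPSB2), FADS2 (FADS1 and FEN1), PSMB9 (PSMB8), VIL1 (USP37), TMSB10 (TRABD2A), HSPD1 (HSPE1), REEP5 (SRP19), KRT8 and KRT18 with each other and MT-ATP8 (MT-ATP6).

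Carcinoma lines are mixed populations that keep changing in culture. Sublines of the same name can diverge through selection, the bottleneck of transduction and drug selection, the integrated construct and the state of the culture. The state of nutrient supply, protein folding, oxidative defence and proliferation is read out by large sets of genes under shared transcription factors, such as ATF4 for amino acid shortage, NRF2 for electrophiles, HSF1 for unfolded cytosolic protein and the E2F factors for entry into S phase. SW480 cells carry a truncated APC and mutant p53, so Wnt signalling is constitutively active and p53 targets depend on other inputs.

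The values of the libraries were on a close scale. Library sums lay between 435140 and 444794 FPKM in the table of shNC and between 421714 and 438967 FPKM in the table of Vector. The median ratio between a pair of libraries across the tables was 0.02 on the log2 scale (the median of 36 pairs, at most 0.11), near the 0.02 between groups within a table (18 pairs, at most 0.09). Transcripts of the mitochondrial genome held 19.2 to 22.3% of the annotated FPKM in shNC and 16.1 to 17.7% in Vector. Over all 12 libraries the first principal component, with 53.7% of the variance, ran from −25.6 to −14.2 in the libraries of the hairpin table and from 17.0 to 21.8 in those of the overexpression table. The second, with 12.2%, set shGPD1L replicate 3 at 26.9 apart from the others, which lay between −11.1 and 2.78.

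Both controls had the same overall profile. Across genes their mean log2(FPKM + 1) values had a Pearson coefficient of 0.974 and a Spearman coefficient of 0.971, where genes are not independent replicates. The coefficient was 0.992 between shNC and shGPD1L and 0.990 between Vector and OE, which lie in the same table. The difference between the controls was within 0.5 log2 units for 9765 genes (87.0%). Its median was −0.01, its standard deviation over genes 0.36, and its 5th and 95th percentiles were −0.51 and 0.62. The spread between libraries of a group was smaller, with a median SD per gene of 0.09 in shNC and 0.07 in Vector.

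**Figure D1:**
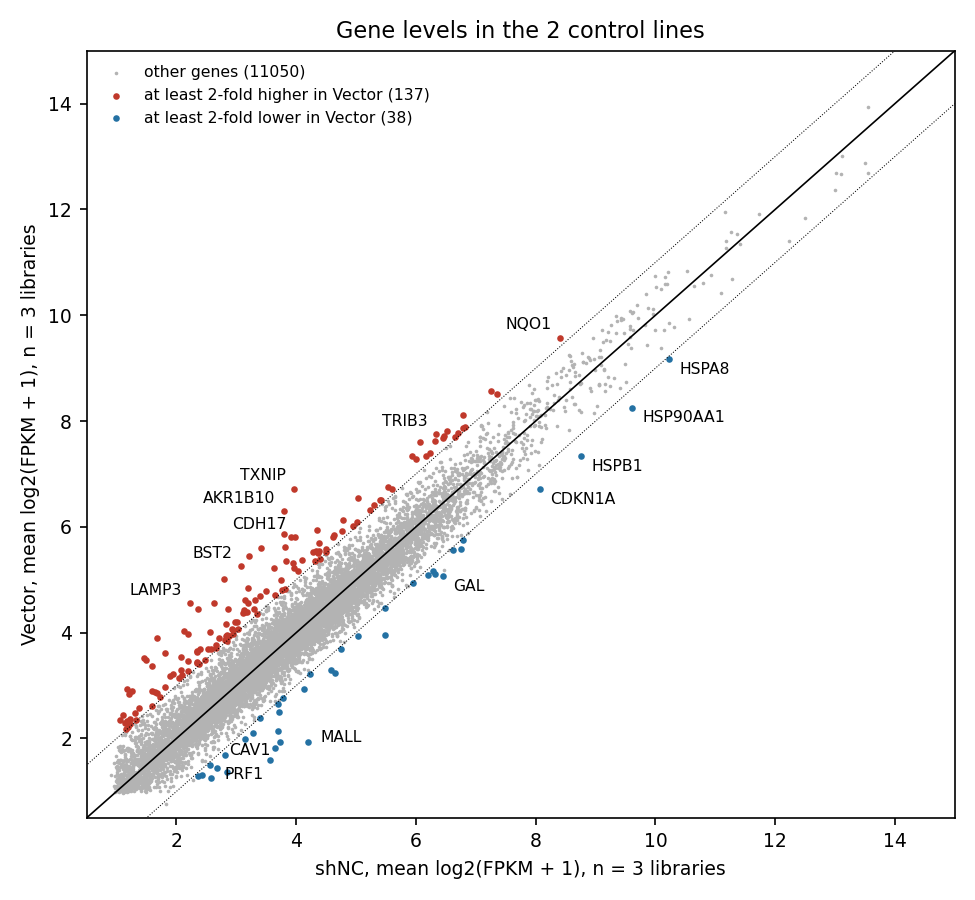
Mean log2(FPKM + 1) of each of 11225 genes in Vector (vertical axis) against shNC (horizontal axis), 3 libraries each; the solid line marks equality and the dotted lines a difference of 1. Most genes lie along the line; 137 called genes at least 2-fold higher in Vector (red) and 38 at least 2-fold lower (blue) lie outside the dotted lines.

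The most abundant transcripts were largely the same. Of the 20 most abundant genes of each control, 17 were shared, as were 83 of the 100 and 864 of the 1000 most abundant. The first 20 held 24.5% of the annotated FPKM in shNC and 21.4% in Vector. They were led by mitochondrially encoded respiratory chain genes: MT-CO1, a subunit of cytochrome c oxidase, had 12030.5 ± 959 FPKM in shNC and 15743 ± 613 in Vector. Behind them came EEF1A1, the elongation factor that brings tRNA to the ribosome, with 3412 ± 387 and 3851 ± 369.8 FPKM, a difference that was not called (adjusted p = 0.179). FTH1 and FTL, the heavy and light chains of the iron store ferritin, followed at 2286 ± 29.4 and 2452 ± 91.4 FPKM in shNC and 3976 ± 62.6 and 3049 ± 48.3 in Vector. The ribosomal protein RPS2, keratin 8 (KRT8), GAPDH, ACTB and the actin-binding TMSB10 completed the nuclear genes in this range.

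The genes that define the cell type matched the label of a colonic epithelial line. EPCAM, an adhesion protein of epithelial cells, was at 199 ± 5.05 FPKM in shNC and 343 ± 0.235 in Vector, and CDH1 (E-cadherin) at 55.7 ± 4.22 and 87.7 ± 0.922. VIL1, the actin bundler of the intestinal brush border, had 27.4 ± 1.04 and 46.5 ± 0.316 FPKM, and CDX2, a transcription factor of intestinal identity, 21.9 ± 0.551 and 22.6 ± 2.32. VIM, the intermediate filament of mesenchymal cells, was near the lower limit of the test at 1.53 ± 0.431 and 1.24 ± 0.201 FPKM. These 5 genes were picked to check the label, and VIM does not stand for all mesenchymal genes. Of a list of 37 mesenchymal genes 21 were in both tables, with summed levels of 655 to 761 FPKM in shNC and 619 to 674 in Vector. Of these, 14 were tested, with 0 called higher and 4 lower, beside 23.4% and 24.5% of all tested genes. Of the markers of B cells, endothelium and erythroid cells, none was among the genes of both tables. Of those of T cells, fibroblasts and hepatocytes none reached a mean of 1 FPKM in both controls. The 2 fibroblast genes in both tables summed to 1.15 to 1.55 FPKM in shNC and 2.06 to 2.31 in Vector. Of the other marker lists, CD68 and CD14 of 6 macrophage genes, ACTA2 and DES of 4 smooth muscle genes and TUBB3 of 4 neuronal genes were tested. CD68, a lysosomal protein, had 27.9 ± 2.25 FPKM in shNC and 16.4 ± 1.41 in Vector and CD14 2.52 ± 0.148 and 1.81 ± 0.229, while the actin ACTA2 was level at 9.34 ± 0.851 and 9.01 ± 0.372. TUBB3, a tubulin that carcinoma lines also express, had 117 ± 6.54 FPKM in shNC and 57.9 ± 4.54 in Vector.

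The controls differed in many genes by a small amount and in few by a large one. Of 11225 genes, 5372 (47.9%) were called, 2625 higher in Vector (23.4%) and 2747 lower (24.5%). A difference of at least 1 log2 unit was called for 175 genes (1.56%), 137 higher (1.22%) and 38 lower (0.339%). The 3 libraries of each group did not overlap for 6377 genes (56.8%). With this number of libraries the same test recovered 78 of 100 simulated differences of 0.5 log2 units and 98 of 100 of 1 log2 unit, and called 15 unchanged genes. The simulated differences were put only on genes above the lowest levels, so recovery near 1 FPKM was not tested. The simulated noise held no effect of table or culture. Far fewer genes were changed than the 5372 called here, so an adjusted p under 0.05 required a smaller p than in the data. The 15 calls therefore do not estimate the false calls among the 5372, and the recovery holds for that stricter threshold. The counts of at least 2-fold differences moved with the treatment of low values, from 137 and 38 to 213 and 63 with a pseudocount of 0.1 and to 90 and 22 among genes of at least 5 FPKM.

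TXNIP had the largest difference of the genes at 1 FPKM or more in both controls. It encodes an arrestin-like protein that binds thioredoxin and limits glucose uptake, and is known as a gene whose transcription follows glucose through the factors MondoA and ChREBP. Its levels in the 3 libraries of shNC were 14.7, 13.95 and 15.2 FPKM and in those of Vector 103, 100.2 and 110.038 FPKM. All Vector libraries were several times higher than every shNC library, with a difference of 2.75 ± 0.06 (adjusted p = 7.66e-08). The libraries with changed GPD1L had 16.7, 17.9 and 12.8 FPKM in shGPD1L and 119, 105 and 109 FPKM in OE. ARRDC4, the close relative of TXNIP with the same known regulation, was 1.78 ± 0.06 higher in Vector (3.60 ± 0.188 and 14.8 ± 0.263 FPKM), and MLXIPL, which encodes ChREBP, was 1.37 ± 0.08 higher (8.19 ± 0.563 and 22.8 ± 2.00 FPKM). ARRDC4 was picked after its values were seen.

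The window before the TXNIP start site is shown because it holds the paired E-boxes through which those factors are known to bind this gene. It spans chr1:145996621-145996720 on the minus strand (RefSeq, GRCh38.p14) and overlaps no exon annotated on that strand. The capitals mark the motif, a pair of E-boxes of the form CACGNG with 5 free bases between them, which ends 71 bases before the start site.
TXNIP: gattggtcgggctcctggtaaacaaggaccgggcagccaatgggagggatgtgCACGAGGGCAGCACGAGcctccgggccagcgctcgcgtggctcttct
The motif was searched on both strands in the 250 bases before each start site of the 8951 tested genes that have an entry in the RefSeq promoter table. It was found for 12 of them (0.134%), and TXNIP was the 1 gene with it among the 22 matched genes of the 30 with the largest differences. Since the motif is known from TXNIP, its match there was fixed in advance, and these counts give no support. ARRDC4 was not among the 12. A match describes the letters and says nothing about binding in these cells.

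The other genes with the largest higher levels in Vector belong to several functions. LAMP3, a lysosomal membrane glycoprotein induced by stress and interferon, had 3.73, 3.74 and 3.64 FPKM in shNC and 22.6, 21.05 and 23.9 in Vector, without overlap (2.32 ± 0.06, adjusted p = 1.89e-07). CCPG1, a receptor for autophagy of the endoplasmic reticulum, had 12.98 ± 2.12 FPKM in shNC and 57.2 ± 5.20 in Vector; its exons overlap PIGB and strandedness is not stated. OSCAR, an immunoglobulin-like collagen receptor, was at 2.21 ± 0.158 and 14.04 ± 1.60 FPKM. DDC, which decarboxylates DOPA and 5-hydroxytryptophan, was at 1.75 ± 0.191 and 10.5 ± 0.621 FPKM, and DEGS2, a sphingolipid desaturase whose exons overlap EVL on the other strand, at 1.82 ± 0.231 and 10.1 ± 0.539 FPKM. SLC16A4, a member of the monocarboxylate transporter family, had 5.24 ± 0.799 and 22.7 ± 1.88 FPKM, and PRR15L 3.35 ± 0.209 and 15.5 ± 0.594 FPKM. The remaining genes among the 15 with the largest difference, AKR1B10, AKR1C3, AKR1C1, KLK7, BST2, LCN2 and CLDN2, are described with their groups. In all 15 genes every Vector library was above every shNC library, which the choice of these genes required.

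**Figure D2:**
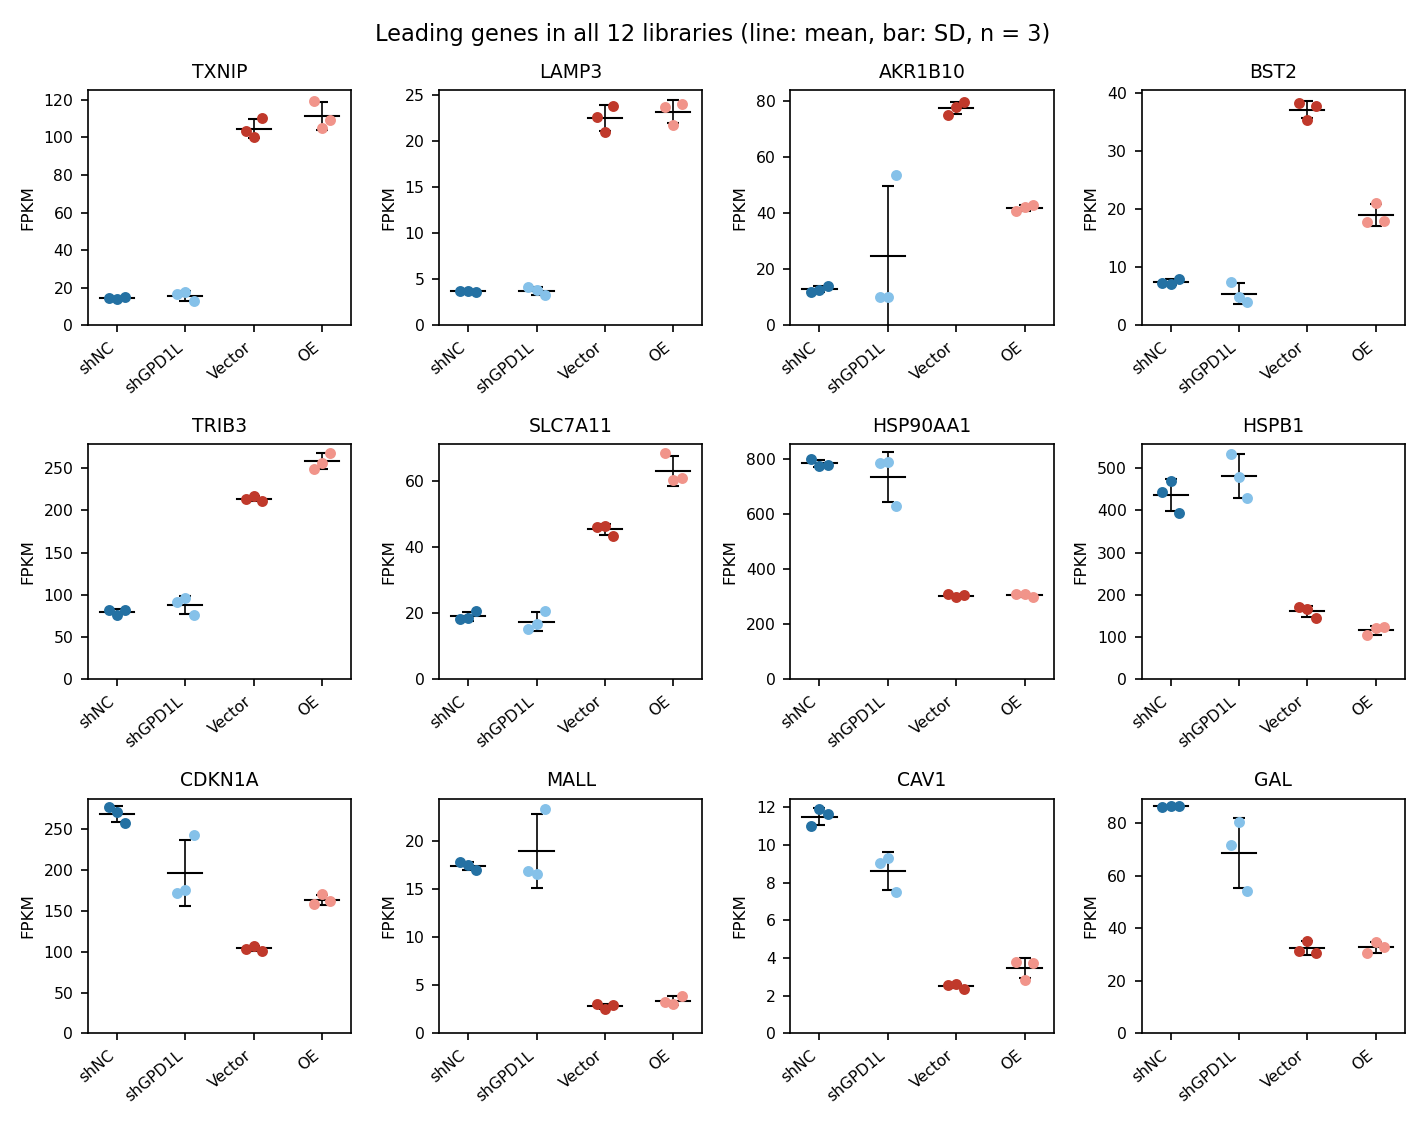
FPKM (vertical axes, from 0) of 12 genes in the 3 libraries of shNC, shGPD1L, Vector and OE; points are libraries, lines means and bars SDs. TXNIP and LAMP3 have like levels within each table and are several times higher in Vector and OE, HSP90AA1, HSPB1, MALL, CAV1 and GAL are lower there, and AKR1B10 is high in 1 library of shGPD1L.

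Among the genes lower in Vector, MALL led of those at 1 FPKM or more in both controls. MALL encodes a membrane raft protein of the MAL family, and had 17.8, 17.5 and 16.99 FPKM in shNC against 3.04, 2.54 and 2.93 in Vector (−2.27 ± 0.07, adjusted p = 3.70e-07). CAV1, the coat protein of caveolae, had 10.98, 11.9 and 11.6 FPKM in shNC and 2.56, 2.61 and 2.38 FPKM in Vector. Neither gene had overlapping groups, which the choice of the 15 leading lower genes required. PRF1, which encodes perforin and is best known from cytotoxic lymphocytes, was at 10.9 ± 0.915 FPKM in shNC and 2.02 ± 0.315 in Vector, while of the 6 T cell markers 1, CD8A, was in both tables, at 0.962 to 1.41 FPKM in shNC and 0.774 to 1.14 in Vector. The part of T cell RNA in the level of PRF1 was not tested. GAL, the neuropeptide galanin, had 86.4 ± 0.130 and 32.5 ± 2.54 FPKM, NES (nestin, an intermediate filament of progenitor cells) 5.41 ± 0.197 and 1.72 ± 0.222, and ALPP (placental alkaline phosphatase) 12.03 ± 1.04 and 3.45 ± 0.604. IGFL2, a secreted protein of the IGF-like family, was at 43.8 ± 2.84 and 14.49 ± 1.08 FPKM, the kinase-inactive ephrin receptor EPHB6 at 23.1 ± 1.69 and 8.79 ± 0.342, and LRRN4 at 5.00 ± 0.381 and 1.39 ± 0.340. AL136295.4 (−1.81 ± 0.50) and TOMM6 (−1.47 ± 0.31) overlap other listed genes in their exons, so their levels are uncertain. The last 4 of the 15, HSPB1, HSP90AA1, CDKN1A and MT1A, are described below, and their lack of overlap was fixed by the same choice.

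Genes of the amino acid response, the targets through which ATF4 raises amino acid uptake and synthesis, were higher in Vector. Of the 38 tested genes of this list, 33 were called higher and 1 lower, with a median difference of 0.66, where 23.4% of all tested genes were called higher and the median of all was −0.01. TRIB3, a pseudokinase that dampens the response, had 82.4, 76.4 and 81.6 FPKM in shNC and 213, 217 and 211 in Vector, without overlap (1.40 ± 0.05, adjusted p = 4.39e-07). NUPR1, a small stress-induced chromatin protein, had 11.4 ± 1.98 and 36.4 ± 2.48 FPKM, and DDIT4, an inhibitor of mTORC1, 91.7 ± 15 and 225 ± 7.13 FPKM. CHAC1, which degrades glutathione, was 1.23 ± 0.07 higher, and SLC7A11, the cystine importer of system xc-, 1.20 ± 0.06 higher. ATF4 itself, the most abundant member, was at 297 ± 39.7 and 460.3 ± 58.7 FPKM (0.63 ± 0.12, adjusted p = 0.00225). PCK2, the mitochondrial enzyme that makes phosphoenolpyruvate, was higher by 1.16 ± 0.07.

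The only called member of that list with a lower level in Vector was ATF3, a stress-induced transcription factor known as a target of ATF4. It had 13.1, 13.2 and 12.2 FPKM in shNC and 5.88, 5.87 and 7.63 in Vector, without overlap (−0.90 ± 0.10, adjusted p = 0.000127). Over the 20 ways to split the 6 libraries, an exact permutation test (two-sided) had p = 0.1, the smallest possible here. The order was the opposite in the libraries with changed GPD1L, with 8.70, 6.40 and 5.87 FPKM in shGPD1L and 10.4, 11.2 and 11.8 in OE. GPD1L encodes a relative of the cytosolic glycerol-3-phosphate dehydrogenase GPD1. It had 8.68, 8.01 and 9.10 FPKM in shNC and 10.7, 10.2 and 11.1 in Vector, again without overlap (0.28 ± 0.07, adjusted p = 0.00843, exact permutation p = 0.1). In the fit over all 12 libraries the call of GPD1L was lost, with an adjusted p of 0.0547. In shGPD1L it was at 1.55, 1.26 and 2.23 FPKM and in OE at 22.3, 22.8 and 22.1 FPKM, so that the controls differed by less than either did from its treated line. GPD2, the mitochondrial glycerol-3-phosphate dehydrogenase, did not pass the test at 8.21 ± 0.926 and 8.30 ± 0.604 FPKM (adjusted p = 0.893), and GPD1 was below the filter with means of 0.748 ± 0.176 and 0.458 ± 0.0439 FPKM (SD, n = 3).

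**Figure D3:**
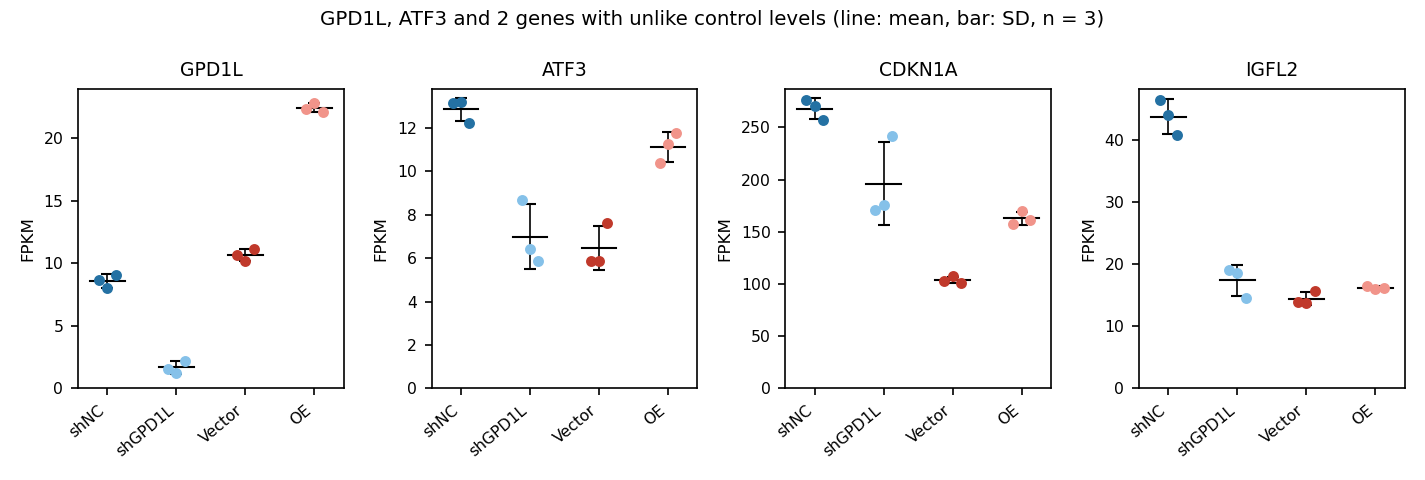
FPKM (vertical axes, from 0) of GPD1L, ATF3, CDKN1A and IGFL2 in the 3 libraries of each of the 4 groups; points are libraries, lines means and bars SDs. GPD1L is close in both controls and moves with the constructs, ATF3 is higher in shNC than in Vector and higher in OE than in shGPD1L, and CDKN1A and IGFL2 are highest in shNC.

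Chaperones of the endoplasmic reticulum and the degradation machinery for misfolded secretory proteins were also mostly higher in Vector. Of 31 genes 20 were called higher and 2 lower, beside 23.4% and 24.5% of all tested genes. The median of the list was 0.29. XBP1, whose spliced form drives expansion of the endoplasmic reticulum, had 89.5 ± 5.55 and 179.8 ± 9.79 FPKM, HERPUD1, a membrane adaptor of degradation, 69.7 ± 5.17 and 134 ± 5.61, and the co-chaperone DNAJB9 6.84 ± 0.283 and 17.5 ± 0.457. The 2 lower members were calreticulin (CALR, −0.17 ± 0.05) and CRELD2 (−0.45 ± 0.07). The call of CALR was lost without Vector replicate 1 (adjusted p = 0.0611).

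Heat shock chaperones, which hold and refold proteins, had the opposite direction. The list also holds mitochondrial chaperones and the transcription factors HSF1 and HSF2, neither of which was called. Of 27 tested members 22 were called lower in Vector and 1 higher, with a median of −0.43, where 24.5% of all tested genes were called lower. HSP90AA1, the stress-inducible HSP90, had 799, 774 and 778 FPKM in shNC and 309, 298 and 305 in Vector, without overlap (−1.36 ± 0.05, adjusted p = 4.39e-07). The constitutive HSPA8, the most abundant member, had 1129, 1287 and 1201 and 609.8, 549 and 572 FPKM. HSPB1, a small heat shock protein that holds unfolded proteins, had 444, 469 and 394 and 170.2, 167 and 145 FPKM, and HSPH1, a nucleotide exchange factor for HSP70, 107 ± 1.47 and 46.8 ± 1.66 FPKM. In each of these 4 genes the highest Vector library was below the lowest shNC library, which for HSP90AA1 and HSPB1 their choice required. The 1 higher member was HSPA9, the HSP70 of the mitochondrial matrix, at 266 ± 19.02 and 333 ± 34.7 FPKM. Its call was lost under quantile normalization and without Vector replicate 2.

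The sites below are shown because they carry the binding motif of HSF1 in promoters of these chaperones. The heat shock element, the inverted units GAA, TTC and GAA with 2 free bases after each of the first pair, was searched on both strands in the 250 bases before each start site, and found for 6 of the 25 heat shock genes with a RefSeq entry (24.0%), for 37 of 8951 tested genes (0.413%) and for 152 of all 27305 genes in the table (0.557%). Capitals mark the motif or its reverse complement, and 1 site per gene is given with its position in GRCh38.p14.
HSP90AA1, chr14:102087112-102087140, minus strand: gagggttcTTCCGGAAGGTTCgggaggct
HSPA8, chr11:123062171-123062199, minus strand: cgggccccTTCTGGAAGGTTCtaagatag
HSP90AB1, chr6:44247823-44247851, plus strand: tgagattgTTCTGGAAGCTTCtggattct
CHORDC1, chr11:90223084-90223112, minus strand: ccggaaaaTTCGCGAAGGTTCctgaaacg
HSPD1, chr2:197500060-197500088, minus strand: attttctgGAAAGTTCTGGAAccgagcga
DNAJB6, chr7:157336865-157336893, plus strand: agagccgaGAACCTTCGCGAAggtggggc
The differences of these genes were −1.36, −1.06, −0.77, −0.21, −0.38 and −0.25 in this order, and that of CHORDC1 did not pass the test (adjusted p = 0.271). No match was found for HSPB1 and HSPH1, which were also lower in Vector. The list was chosen as heat shock genes, so its higher share with this motif follows from that choice and gives no support. The windows of HSP90AA1, HSPA8, CHORDC1 and HSPD1 meet an exon annotated on the same strand, and the match was not tested for binding.

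Targets of NRF2, the factor that responds to electrophiles, and the aldo-keto reductases, which reduce aldehydes, steroids and prostaglandins, were mostly higher in Vector. Of 33 tested genes 24 were called higher and 1, the peroxiredoxin PRDX1 (−0.35 ± 0.07), lower, with a median of 0.51. The shares over all tested genes were 23.4% higher and 24.5% lower. AKR1B10, a reductase of retinal and lipid aldehydes, had 11.9, 12.8 and 13.98 FPKM in shNC and 75.2, 78.1 and 79.6 in Vector (2.50 ± 0.06, adjusted p = 1.89e-07). AKR1C3 had 5.94 ± 0.321 and 31.5 ± 1.32 FPKM and AKR1C1 4.17 ± 0.444 and 20.9 ± 0.0955, where reads of the near-identical AKR1C genes may have been split between them. NQO1, a quinone reductase picked after its values were seen, had 341 ± 22.5 and 763 ± 16.2 FPKM. The AKR1B10 level was not steady within the hairpin line, with 10.2, 10.2 and 53.6 FPKM in the 3 libraries of shGPD1L, where replicate 3 was the high one.

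Interferon-stimulated genes were higher in Vector without exception in direction among those called. Of 33 tested members 28 were called higher and none lower, beside 23.4% and 24.5% of all tested genes. The median of the list was 0.53. BST2, the membrane protein tetherin that retains virions, had 7.25, 7.07 and 8.01 FPKM in shNC and 38.3, 35.5 and 37.8 in Vector, without overlap (2.18 ± 0.06, adjusted p = 2.28e-07). ISG15, a ubiquitin-like modifier and the most abundant member, was at 650.2 ± 70.05 and 1019.8 ± 22.8 FPKM, IFI27 at 112 ± 23.3 and 233 ± 7.18, and IFI6 at 113 ± 10.4 and 237 ± 14.9. Genes of MHC class I presentation, which load peptides for display to T cells, were called higher in 15 of 20 members and lower in 1, CALR, with a median of 0.42. HLA-B had 109.7 ± 0.803 and 277 ± 5.85 FPKM and the immunoproteasome subunit PSMB9 4.27 ± 0.538 and 11.97 ± 1.05. Reads of HLA-B and the closely related HLA-C may not have been separated. Among NF-kB and chemokine genes the count ran the other way, with 4 of 25 called higher and 10 lower (median −0.16). IL18, a cytokine of epithelial cells, was 0.83 ± 0.08 higher, and the NF-kB inhibitor TNFAIP3 was lower at 2.78 ± 0.172 and 1.31 ± 0.187 FPKM (−0.71 ± 0.09).

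p53 target genes were mostly lower in Vector. Of 29 tested genes 18 were called lower and 6 higher, beside 24.5% and 23.4% of all tested genes. The median of the list was −0.46. CDKN1A, the cyclin-dependent kinase inhibitor p21, had 276, 271 and 257 FPKM in shNC and 103, 107 and 101 in Vector, without overlap (−1.36 ± 0.05, adjusted p = 5.38e-07). MDM2, the ubiquitin ligase of p53, had 17.8 ± 0.324 and 8.31 ± 0.113 FPKM, and the death receptor FAS 12.7 ± 1.23 and 5.83 ± 0.463. Higher members included the death receptor TNFRSF10B (0.41 ± 0.05), the BH3-only protein PMAIP1 (0.35 ± 0.08) and SESN2 (0.51 ± 0.05), genes also known to respond to ATF4 and its partner CHOP. Whether these factors bear on their levels here was not tested. The list's median was −0.04 between OE and shGPD1L.

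Cell cycle genes were also mostly lower in Vector, where 24.5% of all tested genes were called lower and 23.4% higher. In the list for DNA replication and the G1/S transition 27 of 42 genes were called lower and 1, cyclin E2 (CCNE2, 0.39 ± 0.07), higher, with a median of −0.28. ORC1, a subunit of the origin recognition complex, had 12.1 ± 0.484 and 6.49 ± 0.290 FPKM, and GINS2, part of the replicative helicase, 10.02 ± 1.08 and 5.60 ± 0.478. Among 42 mitosis genes 26 were called lower and 2 higher (CDC25B and CENPA), with a median of −0.36. CDC20, an activator of the anaphase-promoting complex, had 143, 143 and 142 and 75.8, 84.4 and 74 FPKM in the libraries of shNC and Vector, which did not overlap. MKI67, the proliferation antigen Ki-67, had 50.9 ± 3.48 and 27.3 ± 1.44 FPKM. The p21 gene and the proliferation genes were lower in the same libraries. Calls of CCNE2 and CENPA were lost in the fit over all 12 libraries (adjusted p = 0.262 for CCNE2), and that of CENPA also without shNC replicate 2, Vector replicate 1 or Vector replicate 2.

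**Figure D4:**
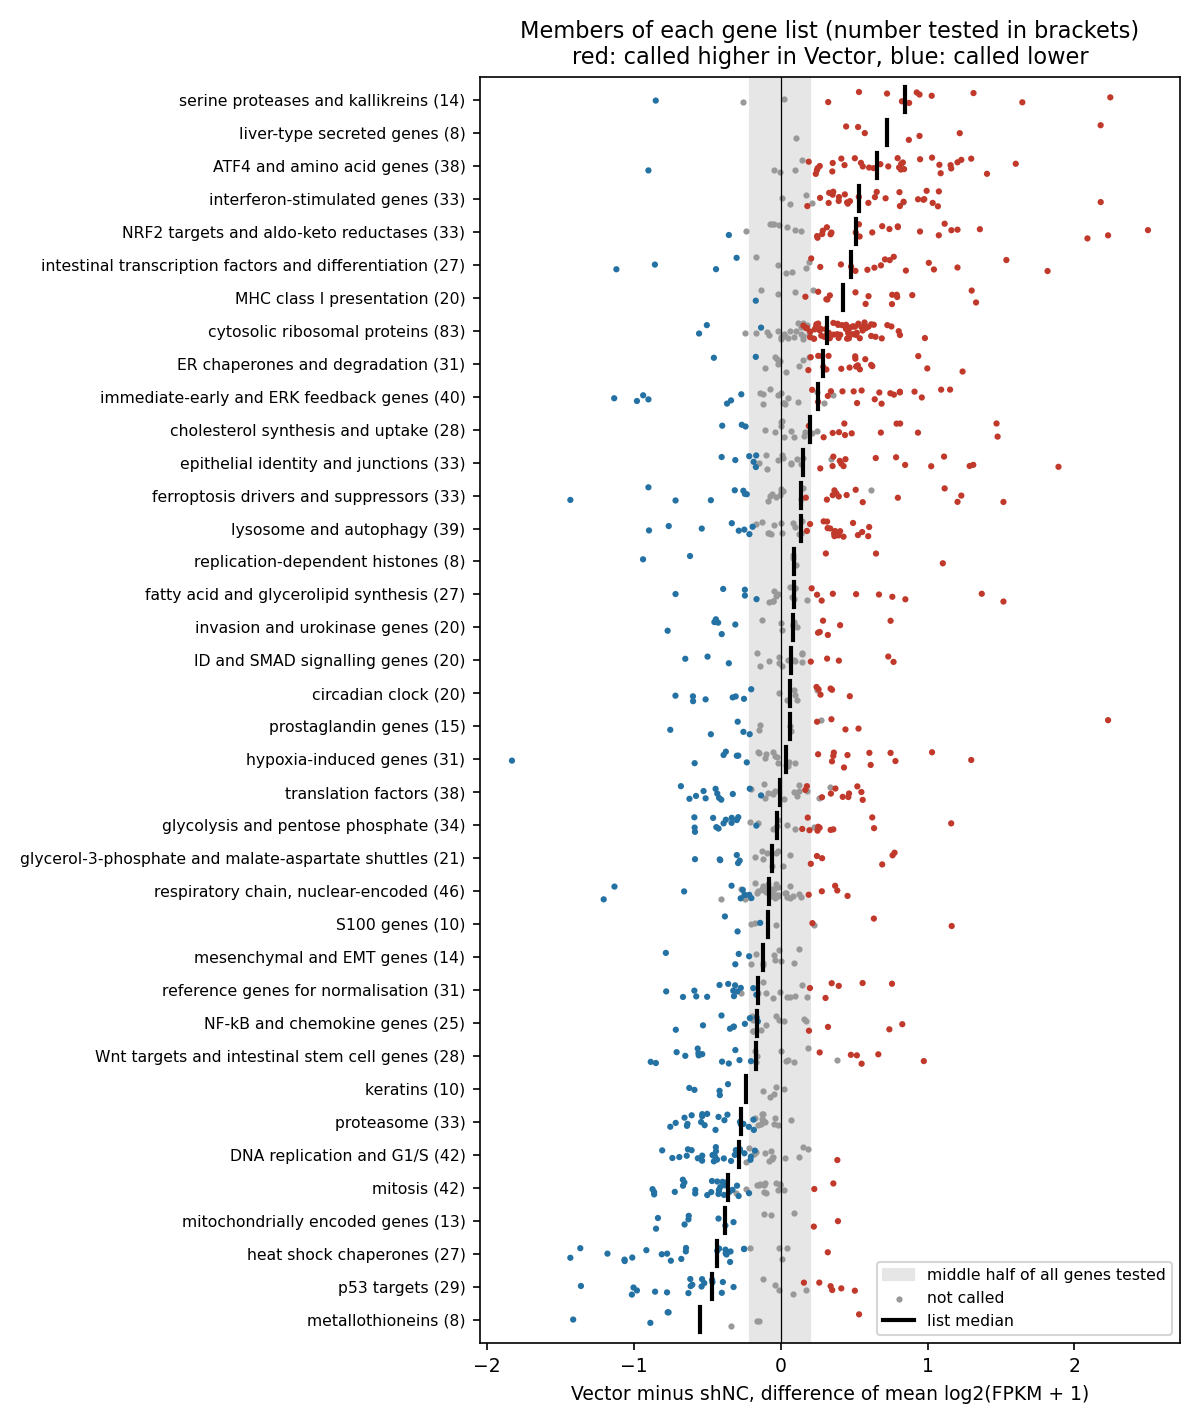
Vector minus shNC difference in mean log2(FPKM + 1) (horizontal axis) of each tested member of 38 gene lists (vertical axis, ordered by median); red points were called higher, blue points lower and grey points were not called, black bars are medians and the grey band spans the quartiles of all tested genes. Kallikreins, ATF4, interferon and NRF2 lists lie to the right of the band and metallothioneins, p53 targets and heat shock chaperones to the left.

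Ribosomal protein genes were mostly called higher and proteasome genes mostly lower. Of 83 cytosolic ribosomal protein genes 57 were called higher in Vector and 3 lower, with a median of 0.32. RPL34 had 146 ± 25.9 and 286 ± 9.34 FPKM and RPL13A 921 ± 37.96 and 1356 ± 22.7. The lower members were the paralogue genes RPL26L1 and RPS27L and RPS26 (−0.13 ± 0.05). The call of RPS26 was lost in 11 of the alternatives, and reads of ribosomal genes can be shared with their many processed copies. Of 33 proteasome genes 21 were called lower and none higher, with a median of −0.27. PSMD2 and PSMD1, the large scaffolds of the regulatory particle, had 109.9 ± 7.43 and 61.7 ± 2.36 FPKM in shNC and 64.8 ± 1.09 and 37.2 ± 1.74 in Vector. Of 38 translation factors 11 were called higher and 12 lower, near the shares over all tested genes (23.4% and 24.5%). EIF1 was 0.56 ± 0.04 higher, and EIF4G1, the scaffold of cap-dependent initiation, was lower (−0.62 ± 0.04).

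Of the 13 mitochondrially encoded genes tested 8 were called lower and 2 higher, with a median of −0.38, which was −0.01 under quantile normalization. MT-CYB had 4841 ± 506 and 2704 ± 72.9 FPKM and MT-ATP8 12015 ± 1617 and 6646 ± 460.1, whereas MT-CO1 was 0.39 ± 0.08 higher, a call that was lost under quantile normalization (adjusted p = 0.0507). Nuclear genes of the respiratory chain were called in 15 of 46 cases, 5 higher and 10 lower, with a median of −0.08; the share called was below that over all tested genes (47.9%). The largest differences among them were those of NDUFB10, a subunit of complex I (−1.20 ± 0.08), and COX7B, of complex IV (−1.13 ± 0.23). In the shuttle genes for glycerol-3-phosphate and for malate and aspartate, 6 of 21 were higher and 6 lower, near the shares over all tested genes (23.4% and 24.5%). GOT1, the cytosolic aspartate aminotransferase, was 0.76 ± 0.05 higher, and the malate dehydrogenase MDH2 was lower (−0.41 ± 0.05). Of 34 genes of glycolysis and the pentose phosphate pathway 11 were called higher and 13 lower, beside 23.4% and 24.5% of all tested genes. TPI1, which interconverts the triose phosphates, was lower at 432 ± 13.7 and 288 ± 17.03 FPKM (−0.58 ± 0.06), and the transketolase TKT was 0.62 ± 0.06 higher.

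Single lipid genes were higher in Vector. SCD, the desaturase that makes oleate, had 31.01, 33.5 and 30.3 FPKM in shNC and 91.8, 96.2 and 88.9 in Vector, without overlap (1.52 ± 0.06, adjusted p = 5.87e-07). In fatty acid and glycerolipid synthesis 10 of 27 genes were called higher and 5 lower (median 0.09), where 23.4% and 24.5% of all tested genes were called. Among the lower was the desaturase FADS2 (−0.72 ± 0.09). Of 28 genes of cholesterol synthesis and uptake 13 were higher and 3 lower, with a median of 0.20. INSIG1, which retains the sterol sensor in the endoplasmic reticulum, had 7.82 ± 0.586 and 23.6 ± 2.49 FPKM, the sterol transfer protein STARD4 3.22 ± 0.140 and 10.7 ± 1.04, and the isomerase IDI1 13.5 ± 0.870 and 26.8 ± 2.14. A list of 8 metallothioneins and zinc genes had 4 members called lower and 1 higher, with a median of −0.55. The 4 lower members were metallothioneins, small proteins that bind zinc and copper, and the remaining metallothionein, MT1F, was not called. MT2A, the most abundant metallothionein, had 267 ± 33.9 and 143 ± 13.6 FPKM and MT1A 24.2 ± 2.89 and 8.59 ± 2.34. The member called higher was SLC30A1, a zinc exporter. The metal-responsive factor MTF1 and the zinc importer SLC39A10 were not called.

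Genes of intestinal differentiation and epithelial secretion were more often higher in Vector. Of 27 intestinal transcription factors and differentiation genes 17 were called higher and 4 lower, beside 23.4% and 24.5% of all tested genes. The median of the list was 0.48. CDH17, the liver-intestine cadherin, had 13.2, 15.7 and 15.6 FPKM in shNC and 55.9, 53.3 and 55.1 in Vector (1.82 ± 0.07, adjusted p = 7.82e-07). AGR2, a disulfide isomerase needed for mucin production, had 65.9 ± 0.703 and 193 ± 3.21 FPKM and the galectin LGALS4 99.6 ± 6.37 and 206 ± 4.63. REG4, of enteroendocrine and goblet cells, was lower (−0.86 ± 0.05), as was the adhesion protein CEACAM6 (−1.12 ± 0.09). Kallikreins and other serine proteases were called higher in 11 of 14 members and lower in 1, with a median of 0.85. KLK7 had 9.18, 7.83 and 7.86 FPKM in shNC and 45.7, 40.3 and 42.9 in Vector, and KLK10, the most abundant, 152 ± 13.02 and 378 ± 28.9 FPKM. The lower member was the trypsinogen PRSS2 (−0.85 ± 0.07), one of a family with near-identical copies. Liver-type secreted genes were called higher in 7 of 8 tested members, among them LCN2, a siderophore-binding lipocalin (9.87 ± 2.45 and 47.5 ± 4.34 FPKM), the complement factor CFB (1.22 ± 0.13) and SERPINA1 (0.95 ± 0.08).

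Junction and adhesion genes were mixed, with 15 of 33 called higher and 6 lower and a median of 0.15. The shares over all tested genes, to be read beside each list here, were 23.4% higher and 24.5% lower. The claudins CLDN2, which forms cation pores, CLDN3 and CLDN7 had 14.1 ± 0.983, 10.3 ± 1.04 and 78.6 ± 2.56 FPKM in shNC and 55.1 ± 2.61, 26.7 ± 3.37 and 197 ± 8.19 FPKM in Vector. The desmosomal DSP was lower (−0.40 ± 0.06). Of 10 keratins 5 were called lower and none higher. KRT8 and its partner KRT18, which share the filament of simple epithelia, had 2473 ± 104 and 1503 ± 92.8 FPKM in shNC and 1646 ± 32.6 and 975 ± 27.7 in Vector. In the list of Wnt targets and intestinal stem cell genes 6 of 28 were called higher and 13 lower (median −0.17). LGR5, the stem cell receptor for R-spondins, had 6.82 ± 0.503 and 3.79 ± 0.364 FPKM and the feedback inhibitor NKD1 4.38 ± 0.264 and 1.98 ± 0.107, whereas LGR4 was 0.66 ± 0.06 and MYC 0.55 ± 0.07 higher. Among immediate-early and ERK feedback genes, 19 of 40 higher and 7 lower, the EGF receptor ligands AREG and EREG had 53.8 ± 3.83 and 21.6 ± 1.39 FPKM in shNC and 106 ± 2.70 and 47.2 ± 2.90 in Vector. DUSP4, a phosphatase of MAP kinases, was lower (−0.94 ± 0.05).

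Genes often used as references were not all level between the controls. Of 31 reference genes 14 were called lower and 6 higher, beside 24.5% and 23.4% of all tested genes. The median of the list was −0.16. ACTB had 2088, 2106 and 2346 FPKM in shNC and 1199, 1542 and 1399.7 in Vector, without overlap (−0.66 ± 0.09, adjusted p = 0.000575). TUBB had 678 ± 22.7 and 394 ± 9.05 FPKM and B2M, which is also the light chain of MHC class I, 148 ± 18.1 and 249.951 ± 26.5. Among the smallest differences in the list were those of REEP5 (27.7 ± 1.47 and 26.7 ± 1.59 FPKM) and YWHAZ (379 ± 14.6 and 390.1 ± 11.05), neither of which was called. GAPDH was lower by a small amount (−0.17 ± 0.05), and its call was lost in 7 of the alternatives.

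The contrast of the lines was then read in libraries that the control comparison did not use. OE minus shGPD1L sets the same tables against each other, but also holds both changes of GPD1L. In this contrast 4396 of 11225 genes (39.2%) were called, 232 of them at least 2-fold (2.07%). Without OE replicate 1, 2 or 3 it called 2565, 2797 and 2925 genes. Of the 175 genes called at least 2-fold between the controls, 165 (94.3%) had the same direction, 135 were also called in it and 91 were again at least 2-fold. Their median difference was 1.20 between the controls and 1.03, in the same direction, between OE and shGPD1L. Of all 5372 genes called between the controls, 4564 had the same direction, against 3566 (60.9%) of the 5853 genes not called. Without shGPD1L replicate 3, 168 of the 175 and 4652 of the 5372 had the same direction, and 157 of the 175 were called in it. Across genes the 2 contrasts had a Pearson coefficient of 0.680, given as a description because genes are not independent and each pair of groups shares a table.

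**Figure D5:**
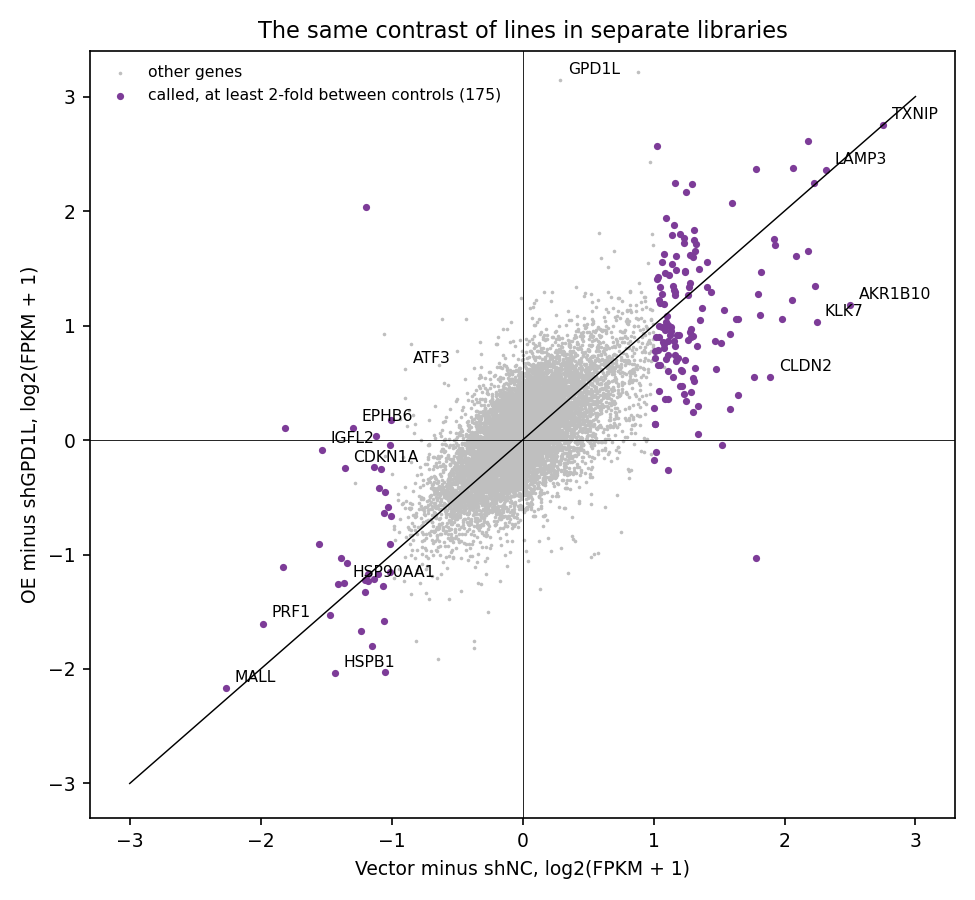
OE minus shGPD1L (vertical axis) against Vector minus shNC (horizontal axis), both as differences in mean log2(FPKM + 1), for 11225 genes; purple points are the 175 genes called at least 2-fold between the controls and the diagonal marks equal differences. Most purple points keep their side, TXNIP, LAMP3 and MALL lie near the diagonal, and IGFL2, EPHB6 and CDKN1A lie near 0 on the vertical axis.

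The medians of the groups described above were set beside those between OE and shGPD1L, which include shGPD1L replicate 3. ATF4 and amino acid genes had a median of 0.66 between the controls and 0.83 between OE and shGPD1L, interferon-stimulated genes 0.53 and 0.54, NRF2 targets 0.51 and 0.40, and heat shock chaperones −0.43 and −0.55. Kallikreins had 0.85 and 0.40, liver-type secreted genes 0.72 and 0.17, ribosomal proteins 0.32 and 0.10, and p53 targets −0.46 and −0.04. Replication genes had −0.28 and −0.46 and mitosis genes −0.36 and −0.19. Whether the lists differ in how far the contrast recurs was not tested. Among the single genes, TXNIP had 2.75 and 2.75, LAMP3 2.32 and 2.36, MALL −2.27 and −2.17, and HSP90AA1 −1.36 and −1.25. CDKN1A had −1.36 and −0.25, and IGFL2 −1.53 and −0.08. Of the 30 leading genes 10 differed between the 2 contrasts in a fit over all 12 libraries, against 1582 of all 11225 genes (14.1%). Without shGPD1L replicate 3, 13 of the 30 differed, against 2571 of all genes (22.9%). The 30 were chosen for their difference between the controls, which is part of this contrast, so their counts cannot be read against the shares over all genes.

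The difference between the controls can be set beside the effects that the study was designed to measure. Within its table, shGPD1L differed from shNC in 69 of the 11225 genes (0.615%), 9 of them at least 2-fold (0.0802%). Without shGPD1L replicate 3, which stood apart, these counts were 626 and 13. OE differed from Vector in 2771 genes (24.7%), 25 of them at least 2-fold (0.223%). The median absolute difference over genes was 0.20 between the controls, 0.12 for the knockdown and 0.13 for the overexpression. For 5759 of the 11225 genes the difference between the controls was larger in size than either effect of GPD1L. The controls lie in different tables and each effect within 1 table, so this count also holds any difference between the tables. These comparisons share the control libraries.

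Median differences by nuclear chromosome were small but unevenly spread. Chromosome medians lay between −0.06 on chromosomes 19 and 20 and 0.10 on chromosome 13, beside −0.38 for the mitochondrial genome. In 149 bins of 20 Mb with at least 20 tested genes, the median was beyond 0.1 in either direction in 13 bins and beyond 0.2 in 1. That bin, on chromosome 13, had a median of 0.21 between the controls and 0.21 between OE and shGPD1L, where 39 of the 149 bins were beyond 0.2. Across genes the difference had a Pearson coefficient of −0.06 with the GC content and of −0.05 with the log2 length of the transcripts. For OE minus shGPD1L the coefficient with the GC content was −0.37.

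Genes that passed 1 FPKM in a single control are not among the 11225. There were 156 such genes in shNC and 167 in Vector. CHI3L1, a secreted chitinase-like lectin, had 13.5, 13.7 and 13.4 FPKM in shNC and 1.29, 0.841 and 0.745 in Vector. The kinase anchor AKAP12 (4.02 ± 0.193 and 0.869 ± 0.146 FPKM, SD, n = 3) and the transcription factor ETS1 (3.21 ± 0.139 and 0.833 ± 0.207) were also higher in shNC. In the other direction, the IGF-binding protein IGFBP3 had 0.867, 0.748 and 0.873 FPKM in shNC and 4.97, 3.397 and 4.44 in Vector. The Golgi calcium pump ATP2C2 (0.531 ± 0.0215 and 3.46 ± 0.266) and the mitochondrial dimethylglycine dehydrogenase DMGDH (0.935 ± 0.0103 and 4.16 ± 0.295) were higher in Vector. These 6 genes were picked from those with the largest differences, and not every such gene is given. Each passed 1 FPKM only in the group where it was high, so the lack of overlap between its groups is no support. SENP3-EIF4A1, with the largest difference, had overlapping groups and is described at the end. Further 185 annotated genes were listed in the hairpin table alone and 208 in the other, of which 35 and 56 had a control mean of at least 1 FPKM. PRR9, a proline-rich protein, with 9.19, 8.97 and 9.14 FPKM in shNC, and GAST, which encodes gastrin, with 3.403, 3.83 and 2.80, were of the first kind. CLRN3, a clarin family membrane protein, with 4.18, 5.56 and 4.59 FPKM in Vector, was of the second.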

How the data were processed

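The authors deposited FPKM per gene for each library in 2 tables, 1 per construct, which may have been normalized separately. Trizol extraction, capture on oligo(dT) beads and priming with random hexamers are given per the labels' protocols, and strandedness is not stated. The submitters' processing notes name HISAT2, StringTie, DESeq2 and GRCh38, without roles or versions; the annotation release is not given in the sources used here. Since the low values showed no step of 1 read, the depth is unknown; counting error therefore has no interval, and all errors describe the spread between libraries.

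Tables were joined on annotated identifiers, all 12203 of which were found in GENCODE release 29 (GRCh38), the source of positions and overlaps. Spreadsheet software had altered 21 symbols of either table, which were restored. Assembled genes without an annotated identifier (1166 and 1172) were left out. Genes whose mean reached 1 FPKM in both shNC and Vector were tested on log2(FPKM + 1), with a pseudocount of 1 FPKM, by limma 3.58.1 (R 4.3.3; intensity trend, eBayes, Benjamini-Hochberg adjusted p) on the 6 control libraries. OE minus shGPD1L and the comparisons within a table used the same fit and genes. The difference of the contrasts was fitted over all 12 libraries. The fit was tested on simulated data, with independent noise and 3 libraries a group. Sequences are from the RefSeq promoter table (GRCh38.p14), to which 8951 tested genes matched by symbol.

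The members, the 38 gene lists, the 9 marker lists of other cells and the tests were chosen with earlier results of these data known. The rule for naming genes took GPD1L, its relatives GPD1 and GPD2, and ATF3; of called genes with non-overlapping groups, the 15 most different each way; the 20 most abundant; up to 3 called members in each direction and the most abundant of each list; the reference genes with the 3 smallest and 3 largest differences; and the 5 highest of those in 1 table. XIST and Y-linked genes were left out. Not every gene the rule took is reported here. Lists are described by counts and medians, with no set test. Alternatives were pseudocounts of 0.1 and 0.5, other filters (none, 5 FPKM, over each table, in either control), equal totals, median of ratios, quantile normalization, eBayes without trend or robust, all 12 libraries, a replicate block, genes without exon overlap, a GC and length correction (mgcv 1.9.3) and each library left out. Equal totals without mitochondrial genes, the block for OE minus shGPD1L and the fit of the difference of contrasts, and results without shGPD1L replicate 3 outside the lists above, were added after seeing the data. Figures were drawn with matplotlib 3.10.9.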

Additional observations from a re-analysis of the deposited data

Results flagged for a closer look

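Of the 30 leading genes, 10 had a difference between the controls that was not matched between OE and shGPD1L, by a fit over all 12 libraries of OE minus shGPD1L less Vector minus shNC (limma, adjusted p under 0.05). Over all tested genes 14.1% passed the same test. The leading genes were chosen for their difference between the controls, which is part of this contrast, so their count cannot be read against that share. Without shGPD1L replicate 3 the same 10 genes passed, and AKR1B10, AKR1C3 and BST2 with them.

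Among genes higher in Vector, the contrast was smaller in the libraries with changed GPD1L for CLDN2 (by −1.34), KLK7 (−1.22), DEGS2 (−0.93) and DDC (−0.84). CLDN2 had 19.99, 15.1 and 24.7 FPKM in shGPD1L and 28.04, 29.2 and 29.9 in OE, beside 15.3, 13.5 and 13.6 in shNC and 57.1, 56 and 52.1 in Vector. The OE libraries of CLDN2 were below those of Vector.

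Among genes lower in Vector, the contrast was nearer to 0 for IGFL2 (by 1.45), EPHB6 (1.40), CDKN1A (1.11), CAV1 (0.72) and ALPP (0.65). IGFL2 had 46.4, 44.1 and 40.8 FPKM in shNC and between 13.8 and 19.03 FPKM in the other 9 libraries. EPHB6 had 14.96, 17.5 and 11.04 FPKM in shGPD1L and 15.02, 14.4 and 17.1 in OE, which overlapped. In HSPB1 the contrast was larger with changed GPD1L (by −0.60), with 534, 479 and 429 FPKM in shGPD1L and 105, 120.4 and 124 in OE.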

How the results depend on the processing

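The control comparison called 5372 genes, and between 4157 (genes without exon overlap) and 5570 (no filter) under the other settings; without each library in turn it called 4461 to 4953 genes, 139 to 150 of them at least 2-fold higher and 37 to 41 lower. At least 2-fold calls came to 213 higher and 63 lower with a pseudocount of 0.1, and to 90 and 22 with a filter at 5 FPKM. Equal totals without mitochondrial genes gave 2252 higher of 5493 calls (41.0%, beside 48.9%). GPD1L kept its direction, with an adjusted p of 0.0547 (0.28) over all 12 libraries, and 0.24 to 0.32 without each library. Of 227 called named genes, 192 kept the call wherever they were tested. Quantile normalization turned MT-CO2 (0.36), MT-CO3 (0.0636) and RPS2 (−0.0286); the cause was not tested. Of 38 list medians, 34 kept their sign in all settings. OE minus shGPD1L moved more: its 4396 calls became 2565 to 5997 without each library in turn (2565, 2797 and 2925 without OE replicates 1, 2 and 3), 1607 to 3260 of them higher and 958 to 2737 lower (2737 without shGPD1L replicate 3). TPM rescaling was not run. Equal totals resemble it, but were taken only over the annotated genes of both tables.

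Replicate numbers do not pair the controls: deviations of same-numbered libraries had coefficients of 0.04, −0.05 and −0.03 across genes. With the replicate number as a block the control comparison called 5052 genes.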

Other observations

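Several genes called at least 2-fold between the controls had no such direction between OE and shGPD1L. GPX2, a glutathione peroxidase of the gut epithelium, had 11.8, 14.4 and 13.5 FPKM in shNC, 37.8, 42.3 and 39.4 in Vector, 15.8, 12.8 and 47.4 in shGPD1L and 21.9, 20.6 and 19.9 in OE. In GPX2 this rests on shGPD1L replicate 3, since the other 2 shGPD1L libraries were below every OE library. CEACAM6 had 4.38 ± 0.238 FPKM in shNC, and means of 1.48 ± 0.208, 1.62 ± 0.361 and 1.67 ± 0.0287 in Vector, shGPD1L and OE. FAS was highest in shNC as well, at 12.7 ± 1.23 FPKM, beside 5.83 ± 0.463, 6.85 ± 0.665 and 7.87 ± 1.11. SNCG, the gamma member of the synuclein family, and RARRES3, a phospholipid-modifying enzyme induced by retinoids, had their highest group mean in Vector, at 41.3 ± 2.47 and 27.4 ± 0.825 FPKM. These genes were chosen after their values were seen, out of the 10 of 175 that had the opposite sign.

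One of those 10 was called in the opposite direction: the identifier ENSG00000015479, 1 of those with the symbol MATR3, had means of 17.4 FPKM in shNC, 7.08 in Vector, 12.9 in shGPD1L and 58.7 in OE. Reads of overlapping genes of the same name may not have been separated. The readthrough gene SENP3-EIF4A1 had 0.533, 183 and 203 FPKM in the 3 libraries of shNC and 1.56, 0.159 and 0.709 in Vector, so that its level differed within a group.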
